A study of Mus musculus with 90 samples.

Results

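Melanoma allografts that had received only a control antibody differed among themselves in how much T cell RNA they held, and the differences described here are those between the T cell rich and the T cell poor tumours of that group. The 22 control IgG arrays, of 90 arrays in the series, were assigned to a class selected on measured values of 4 genes. These were Cd3g, part of the receptor complex of T cells, Cd8b1, the beta chain of the CD8 coreceptor, Nkg7, a granule protein of cytotoxic lymphocytes, and Ccl5, a chemokine that they release. Each array's score was the mean log2 value of the 4 genes. The numeric sample titles fall into ranges that share their first digits, called title series here, and nothing in the labels says what these stand for. Title series A holds 14 of the control arrays and title series B the other 8. Arrays above the median score of their title series were called T cell rich and those below it T cell poor, which gave 7 against 7 arrays in series A and 4 against 4 in series B. The split holds 11 T cell rich and 11 T cell poor arrays, and the 4 score genes are left out of every test.

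Expression was measured on Affymetrix mouse arrays in subcutaneous tumours of the genotype Hgftg;Cdk4R24C/R24C on the B6.cBrd background, that is, melanomas with an Hgf transgene and the R24C form of Cdk4, passed on as allografts. Both classes received control mouse IgG1 with the D265A change (NIP228) at 10 mg/kg. Beside them stand tumours treated with an antibody against PD-L1 of the same D265A type at 10 mg/kg, namely Responder tumours, which had shrunk, and NonResponder tumours, which had grown on, and tumours given PBS at 10 ml/kg. Control tumours were taken at several times, and the labels give neither the time of each array nor a statement that each array is a separate mouse, so the p-values below cover only the spread among these arrays.

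The score used for the split ran from 7.07 to 8.42 (median 7.87) in the T cell rich arrays, against 6.20 to 7.02 (median 6.60) in the T cell poor arrays. The arrays next to the median had 7.21 on the rich and 7.02 on the poor side in series A, and 7.07 and 6.98 in series B, so the lowest T cell rich array of series B lay close to the highest T cell poor arrays. Leaving out any of the 4 score genes moved 0 arrays to the other class. Of the score genes, Cd3g had 6.07 to 7.57 (median 7.03) in T cell rich and 4.83 to 5.98 (median 5.53) in T cell poor arrays, and Cd8b1 had 6.09 to 7.57 (median 6.76) and 5.70 to 6.43 (median 5.99). Nkg7 had 7.45 to 8.87 (median 8.41) in T cell rich and 6.29 to 7.75 (median 6.73) in T cell poor arrays, and Ccl5 had 8.59 to 9.89 (median 9.29) and 7.71 to 8.68 (median 8.30). These values made the split and are given without a test.

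**Figure D1:**
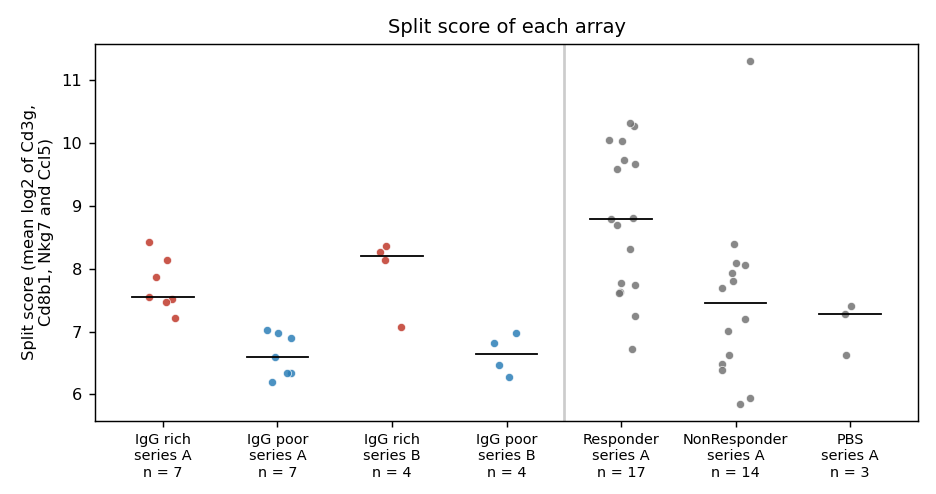
Split score of each array, as the mean log2 value of Cd3g, Cd8b1, Nkg7 and Ccl5, in T cell rich (red) and T cell poor (blue) control IgG tumours of each title series and, in grey, in Responder, NonResponder and PBS tumours of series A; points are arrays and bars medians. T cell rich arrays lie between 7.07 and 8.42 and T cell poor arrays between 6.20 and 7.02, and 10 of 17 Responder arrays lie above the highest T cell rich array of their series.

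As background, CD8 T cells and natural killer cells that recognise a tumour release interferon gamma, a cytokine that acts on tumour cells, macrophages and vessels alike. It switches on guanylate-binding proteins and immunity-related GTPases, the machinery that loads peptides on class I and class II molecules, and the chemokines CXCL9 and CXCL10, which attract further T cells. It also induces PD-L1, the ligand that restrains T cells through the receptor PD-1. In RNA of whole tumours, fewer cells of a type and less RNA per cell cannot be told apart.

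Markers of fat and of skeletal muscle moved with the split, and their values come first because later results are set beside them. In series B all 4 T cell rich arrays had a mean of the adipocyte list of 7.62 to 8.37, against 6.03 to 6.39 in the T cell poor arrays. Adipoq, the fat cell hormone adiponectin, lay between 10.61 and 11.46 in the T cell rich arrays of series B, against 6.39 to 7.65 in the T cell poor arrays. All 7 measured adipocyte genes had positive differences over both series together, 6 of them in each of the series, and Lipe, a fat-splitting enzyme, passed the test (0.55 ± 0.14, limma adjusted p = 0.05). In series A the adipocyte mean was 5.56 to 6.85 in T cell rich and 5.67 to 6.30 in T cell poor arrays. These overlapped, although 3 of 7 T cell rich arrays lay above every T cell poor array. The mean of the skeletal muscle list exceeded 8 in 4 T cell rich arrays (9.21, 10.20 and 10.48 in series A and 8.86 in series B), whereas the highest T cell poor array had 7.24. The other 7 T cell rich arrays had 5.31 to 6.75, within the range of the T cell poor arrays (5.24 to 7.24). Of the 13 muscle genes 12 had positive differences in both series (median of the list 1.43), and 0 passed limma at an adjusted p under 0.05 (5 at an unadjusted p under 0.05). Acta1, skeletal muscle actin, lay at 5.30 to 13.21 (median 6.59) in T cell rich and 5.30 to 9.97 (median 5.70) in T cell poor arrays. Below, a list median is also given without these 4 muscle-high arrays where it moved by over 1.5 times or changed sign, and for some other lists. The part of either tissue in the results was not tested.

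Across the 18189 genes tested, 213 were higher (1.17%) and 44 were lower (0.242%) in T cell rich than in T cell poor tumours. The two-sided test was limma with the title series as a block. Genes were called at an adjusted p (Benjamini-Hochberg) under 0.05, which asks only whether a gene went with the split. All 257 called genes had the same sign in both title series, beside 27.6% of all genes that were above 0 and 33.9% that were below 0 in both. The calls were made on both series together, so this agreement was nearly fixed in advance and is no replication between series. The difference exceeded 2-fold for 40 of the higher and 2 of the lower genes. The median of all genes was -0.02 and became -0.07 when each array was centred on its median. With that centring 68.8% of 247 called genes were higher, against 82.9% of the 257. Without the 4 muscle-high arrays 1 gene was higher and 0 were lower, with 1546 genes at an unadjusted p under 0.05 against 2906 of all 22 arrays, while all 257 kept their sign at a median of 0.83 of their size. The 1 gene was Ltb, so every other call named below was lost without these arrays. The 4 arrays also had the highest split scores of their title series (8.13, 7.87 and 8.42 in series A, 8.35 in series B). Leaving them out therefore also took out T cell rich arrays and narrowed the contrast in score. Muscle and T cell content cannot be told apart in any value given without the muscle-high arrays. With the adipocyte mean as a covariate 0 genes were higher and 0 lower by limma (1952 at an unadjusted p under 0.05), and all 257 kept their sign at a median of 0.89 of their size. The adipocyte mean separated the classes in series B, so this covariate overlapped with the split and errors grew. For Gbp3, 0.66 ± 0.10 became 0.67 ± 0.12 (SE). The loss of calls therefore cannot show a part for fat. Series A alone gave 0 calls (2562 genes at an unadjusted p under 0.05), and series B alone gave 15 higher and 0 lower.

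The cells that the score stands for are described without a test, because their genes travel with the score genes. Other lymphocyte genes named below, among them Pdcd1, Cxcr6, Ltb, Cd96, Gimap3 and Ptpn22, can travel with the score genes too. Their p-values and separations are therefore no support independent of the split. Of the 17 measured genes of the T cell receptor and coreceptor list 14 had positive differences (median 0.39, and 0.21 without the muscle-high arrays), beside 8095 of all 18189 genes. Cd8a, the alpha chain of CD8, had 5.79 to 6.61 (median 6.30) in T cell rich and 4.89 to 6.27 (median 5.74) in T cell poor tumours, a difference of 0.58 ± 0.13 (SE). Cd5, a T cell surface receptor, had 4.11 to 5.42 (median 4.68) and 3.95 to 4.40 (median 4.19), and 10 of 11 T cell rich arrays lay above every T cell poor array. Cd4, the coreceptor of helper T cells that myeloid cells also carry, lay at 6.29 to 6.58 (median 6.47) in T cell rich and 6.26 to 6.62 (median 6.54) in T cell poor tumours, with overlapping classes and a difference of -0.03. The kinase gene Zap70 differed by -0.07. The cytotoxic T and NK cell list had positive differences in both series for all 16 measured genes (median 0.72). The largest were those of the NK receptor genes Klrc1 (1.30 ± 0.37), Klrd1 (1.20 ± 0.38) and Klrk1 (1.12 ± 0.23) and of the granzyme gene Gzmb (1.21 ± 0.28). Ifng, which encodes interferon gamma itself, had 4.48 to 6.35 (median 5.43) in T cell rich and 3.82 to 5.53 (median 4.26) in T cell poor tumours, with 4 of 11 T cell rich arrays above every T cell poor array.

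Interferon gamma response genes rose most often among the lists that do not stand for lymphocytes: 13 of 15 measured genes were higher in T cell rich tumours and 0 lower, with a list median of 0.87 (0.94 in series A and 0.76 in series B), beside 1.17% of all genes. The promoters of the 3 genes of smallest p with an entry, counting both the interferon gamma and the class I list, are shown because the genes moved together. They run from 250 bases before to 50 bases after the RefSeq start (build GRCm38.p6), 5′ to 3′ along the gene, with capitals on matches to 2 motifs. These are GAAA and again GAAA with any 2 bases between them, a core of the interferon-stimulated response element, and TTCNNNGAA, the interferon gamma-activated site. Both were sought on both strands:
Gbp3 (chr3:142559794-142560093, plus strand): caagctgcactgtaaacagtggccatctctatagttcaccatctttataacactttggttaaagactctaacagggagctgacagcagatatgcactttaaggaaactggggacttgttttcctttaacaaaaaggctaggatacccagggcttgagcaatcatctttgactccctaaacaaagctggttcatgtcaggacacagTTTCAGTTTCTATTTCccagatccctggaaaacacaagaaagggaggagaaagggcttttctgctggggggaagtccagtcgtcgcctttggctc
Irgm2 (chr11:58214727-58215026, plus strand): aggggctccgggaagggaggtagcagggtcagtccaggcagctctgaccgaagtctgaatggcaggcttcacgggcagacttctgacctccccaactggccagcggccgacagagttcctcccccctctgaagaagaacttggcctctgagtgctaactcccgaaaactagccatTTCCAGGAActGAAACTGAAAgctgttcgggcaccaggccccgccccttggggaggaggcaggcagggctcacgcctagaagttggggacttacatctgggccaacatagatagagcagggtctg
Igtp (chr11:58199306-58199605, plus strand): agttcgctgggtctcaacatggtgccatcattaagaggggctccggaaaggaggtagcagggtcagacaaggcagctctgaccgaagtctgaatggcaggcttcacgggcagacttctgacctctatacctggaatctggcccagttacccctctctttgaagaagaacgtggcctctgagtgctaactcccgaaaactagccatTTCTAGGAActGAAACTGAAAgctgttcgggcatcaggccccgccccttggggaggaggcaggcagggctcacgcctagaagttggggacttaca
Gbp3 holds 2 overlapping matches to the response element core, both as the reverse complement, in the first listed of its 2 windows. Irgm2 and Igtp, neighbouring genes of like sequence, each hold 1 match to each motif, side by side. The response element core occurs in 3.44% of all 32851 RefSeq windows, in 18.6% of the 210 windows of the higher genes and in 0 of the 47 windows of the lower genes. The 210 windows belong to 164 of the 213 higher genes and the 47 windows to 39 of the 44 lower genes. A gene with several windows counts more than once. TTCNNNGAA occurs in 8.30% of all windows, in 14.8% of those of the higher genes and in 12.8% of those of the lower genes. These are matches of letters and say nothing on binding.

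Gbp3, a guanylate-binding protein that acts against intracellular microbes, had 10.93 to 11.66 (median 11.30) in T cell rich tumours, against 10.22 to 11.08 (median 10.56) in T cell poor tumours. Its narrow spread left 8 of 11 T cell rich arrays above every T cell poor array, at a difference of 0.66 ± 0.10 (SE, n = 11 each; limma adjusted p = 0.00217). Gbp6, of the same family, had 11.07 to 12.14 (median 11.79) and 9.82 to 11.34 (median 10.24) and was 2.38-fold higher (log2 1.25 ± 0.19, limma adjusted p = 0.00217). The immunity-related GTPase genes Irgm2 and Igtp, which control vacuoles around microbes in mice, rose by 0.87 ± 0.13 and 0.95 ± 0.15 (adjusted p = 0.00217 and 0.00387, limma). Larger and more variable rises were those of Ubd, a ubiquitin-like modifier, with 6.91 to 9.99 (median 8.26) in T cell rich and 4.95 to 9.15 (median 5.91) in T cell poor tumours (3.91-fold; log2 1.97 ± 0.47, limma adjusted p = 0.0365). Gbp8 had 5.53 to 7.63 (median 6.85) and 3.59 to 6.09 (median 4.90) (3.49-fold, limma adjusted p = 0.00387), and Gbp2b rose by 1.41 ± 0.33 (limma adjusted p = 0.0357; 0.91 without the muscle-high arrays). Probe sets of guanylate-binding protein and GTPase genes can pick up transcripts of their close relatives, so the share of each relative is uncertain. Nos2 (-0.12) and Ido1 (0.30), which encode the enzymes that make nitric oxide and break down tryptophan, were the members that did not pass (limma adjusted p = 0.408 and 0.371). Without the muscle-high arrays the list median was 0.79, and the adjusted p of Gbp3 was 0.0815.

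Class II antigen presentation followed the same split, with 8 of 10 measured genes higher and 0 lower (median 0.90), beside 1.17% and 0.242% of all genes. Cd74, the invariant chain that guides class II molecules, had 10.69 to 12.73 (median 11.46) in T cell rich tumours, against 8.93 to 10.74 (median 10.01) in T cell poor tumours (3.2-fold; log2 1.68 ± 0.25, limma adjusted p = 0.00217). Only 1 T cell rich array fell within the range of the T cell poor arrays. H2-Aa, a class II alpha chain, had 10.85 to 12.66 (median 11.51) and 8.98 to 11.27 (median 10.51) (log2 1.51 ± 0.25, limma adjusted p = 0.00387), and the beta chain gene H2-Eb1 rose by 1.47 ± 0.27 (limma adjusted p = 0.0082). H2-DMa, a chain of the molecule that exchanges class II peptides, rose by 1.19 ± 0.19 (limma adjusted p = 0.00387). The list median was 0.89 in series A, where the adipocyte means of the classes overlapped, and 0.98 in series B, where they did not. In series A the adipocyte mean of 3 of 7 T cell rich arrays still exceeded every T cell poor array. These were the muscle-high arrays of series A, and their class II means (9.53, 8.97 and 9.29) were its highest. Without them the series A difference of Cd74 was 1.15, against 1.60 with them. Over both series the list median was 0.68 without the muscle-high arrays.

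Class I antigen presentation moved less: 6 of 14 genes were higher and 0 lower (median 0.41), beside 1.17% and 0.242% of all genes, and all 14 had positive differences in both series. Psmb10 and Psmb8, subunits of the immunoproteasome that cuts proteins into peptides, rose by 0.70 ± 0.12 and 0.42 ± 0.08 (limma adjusted p = 0.00573 and 0.00997). Psmb10 lay at 10.90 to 11.73 (median 11.45) in T cell rich tumours, against 10.30 to 11.28 (median 10.54) in T cell poor tumours, so 9 of 11 T cell rich arrays exceeded every T cell poor array. Without the muscle-high arrays its difference was 0.58 (limma adjusted p = 0.152). Erap1, which trims peptides in the endoplasmic reticulum, and Tapbp, which bridges class I to the peptide transporter, rose by 0.51 ± 0.09 and 0.80 ± 0.16 (limma adjusted p = 0.00599 and 0.0128). Of 18 type I interferon response genes 7 were higher and 0 lower (median 0.38, with 0.48 in series A and 0.23 in series B), beside the same shares of all genes. Among them Xaf1, an interferon-induced regulator of cell death, rose by 0.48 ± 0.08 (limma adjusted p = 0.00387). Ifit3 and Ifit2, which bind viral RNA, rose by 0.67 ± 0.15 and 0.52 ± 0.12 (limma adjusted p = 0.0225 and 0.0283). The transcription factor gene Irf7 rose by 0.68 ± 0.16 (limma adjusted p = 0.031).

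**Figure D2:**
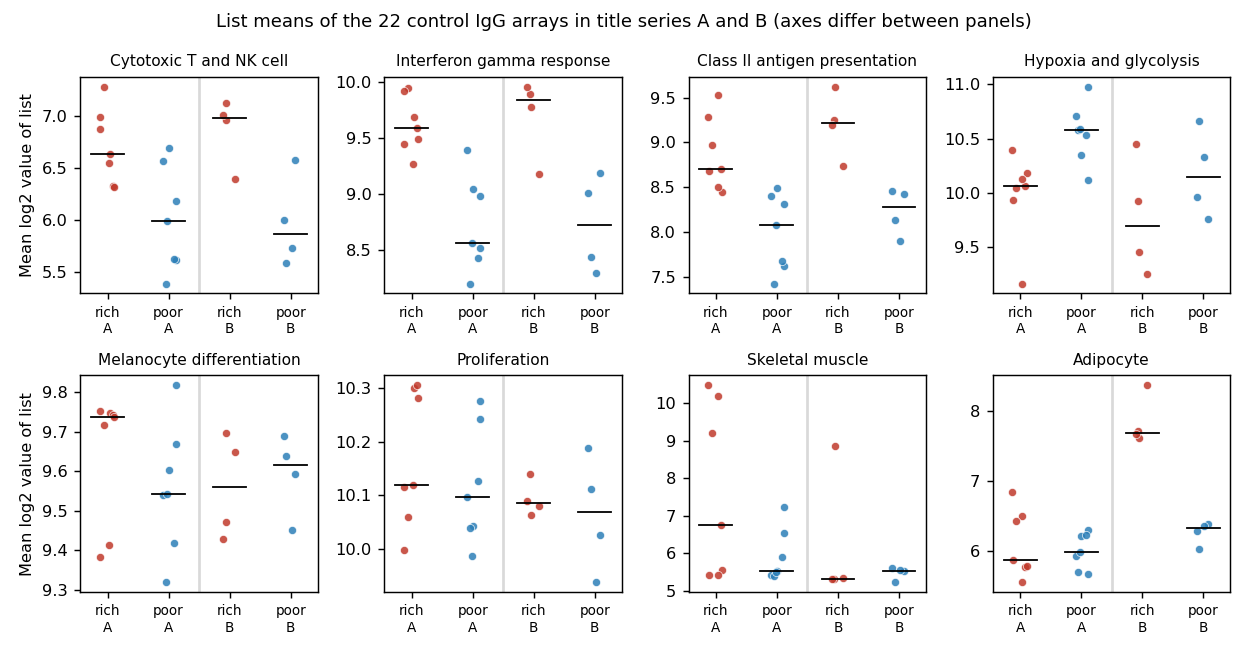
Mean log2 value of the measured genes of 8 lists in each control IgG array, T cell rich (red) left of T cell poor (blue) within title series A and B; bars are medians and the axes differ between panels. The interferon gamma mean exceeds every T cell poor array in 6 of 7 T cell rich arrays of series A and 3 of 4 of series B, the skeletal muscle mean exceeds 8 in 4 T cell rich arrays, and the adipocyte mean separates the classes in series B.

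The chemokine list held 3 higher and 0 lower genes of 14 (median 0.38), beside 1.17% and 0.242% of all genes. Without the muscle-high arrays the list median was 0.18, and Cxcl9, Cxcl10 and Cxcr6 had limma adjusted p = 0.137, 0.0815 and 0.159. Cxcl9, an interferon gamma-induced ligand of CXCR3, had 10.11 to 11.63 (median 11.31) in T cell rich tumours, against 7.89 to 10.56 (median 9.26) in T cell poor tumours (3.08-fold; log2 1.62 ± 0.28, limma adjusted p = 0.00459). Cxcl10, a ligand of the same receptor, had 10.06 to 10.68 (median 10.49) and 9.30 to 10.23 (median 9.59), a smaller difference with a tighter spread (log2 0.74 ± 0.10, limma adjusted p = 0.00217). Cxcr6, a receptor on tissue-lodged T cells, rose by 1.31 ± 0.25 (limma adjusted p = 0.00991). The receptor gene Cxcr3 differed by 0.31 ± 0.08 and did not pass (limma adjusted p = 0.0552). Of 9 genes for cytokines that support T cells, Il7, a survival factor of lymphocytes, rose by 0.40 ± 0.07 (limma adjusted p = 0.00387) and 0 were lower. Il7 was dim, at 4.47 to 5.31 beside array medians of 5.78 to 5.86. Among the called genes named below, Pdcd1, Pdcd1lg2, Cd96, Cma1 and Ankrd33b also had both class medians under these array medians.

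The target of the blocking antibody, PD-L1, and its receptor PD-1 were followed as single genes. Pdcd1, which encodes PD-1, had 5.17 to 6.06 (median 5.72) in T cell rich tumours, against 4.68 to 5.41 (median 5.10) in T cell poor tumours, and 9 of 11 T cell rich arrays lay above every T cell poor array (1.58-fold; log2 0.66 ± 0.11, limma adjusted p = 0.00387). Without the muscle-high arrays the difference of Pdcd1 was 0.54 (limma adjusted p = 0.12). T cells carry PD-1, so Pdcd1 can travel with the score genes, and its p-value is no support independent of the split. Cd274, which encodes PD-L1, had 8.14 to 9.12 (median 8.45) and 7.96 to 8.62 (median 8.19), with a difference of 0.23 ± 0.10 that did not pass (limma adjusted p = 0.251). Whether these 2 differences differ from each other was not tested. Of 8 checkpoint ligand genes (median 0.16, and 0.09 without the muscle-high arrays) 1 was higher, Pdcd1lg2, which encodes the second PD-1 ligand PD-L2, by 0.44 ± 0.11 (limma adjusted p = 0.0397). The list of inhibitory receptors and regulatory T cell genes had 3 higher and 1 lower of 13, beside 1.17% and 0.242% of all genes (median 0.26, and 0.13 without the muscle-high arrays). Tnfrsf18, which encodes the costimulatory receptor GITR, rose by 0.60 ± 0.10 and Ikzf2, the transcription factor Helios of regulatory T cells, by 0.29 ± 0.07 (limma adjusted p = 0.00509 and 0.0273). Tnfrsf9, the costimulatory receptor 4-1BB, went the other way, with 7.65 to 9.01 (median 8.40) in T cell rich and 8.12 to 9.64 (median 9.12) in T cell poor tumours (log2 -0.65 ± 0.15, limma adjusted p = 0.0379).

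The lists for other immune cells held 0 to 2 called genes each, beside 1.17% of all genes called higher and 0.242% lower, so shares resting on 1 or 2 genes are given as counts only. Of 13 B cell and plasma cell genes 2 were higher and 0 lower, both antibody genes (list median 0.26, and 0.01 without the muscle-high arrays). In this list 8 genes had positive and 5 negative differences, among the latter Pax5 (-0.19 ± 0.06, limma adjusted p = 0.106). Jchain, the joining chain of secreted antibodies, had 6.19 to 10.45 (median 7.67) in T cell rich and 5.02 to 7.97 (median 5.99) in T cell poor tumours (3.45-fold; log2 1.79 ± 0.37, limma adjusted p = 0.0135). Ighm, the IgM heavy chain, rose by 1.82 ± 0.28 (limma adjusted p = 0.00344). Of 4 genes listed for lymph node stroma, Ltb was higher by 1.002 ± 0.13 (limma adjusted p = 0.00129). Ltb encodes lymphotoxin beta, which lymphocytes make, so it does not by itself mark stroma. The other 3 did not pass, with -0.12 for Madcam1, -0.12 for Glycam1 and 0.34 for Cxcl13 (list median 0.11, and -0.03 without the muscle-high arrays). The mean of these 4 genes, which includes Ltb, was 5.56 to 6.45 in T cell rich and 5.36 to 5.62 in T cell poor arrays. Its part in the calls of lymphocyte genes was not tested. Ltb was also the 1 gene called without the muscle-high arrays (0.79, limma adjusted p = 0.0208) and the 1 gene called with the adipocyte and muscle means as covariates (0.80, limma adjusted p = 0.0197). The dendritic cell list (median 0.18, and 0.12 without the muscle-high arrays) had 2 of 11 higher, the integrin gene Itgax (0.62 ± 0.13) and the homing receptor gene Ccr7 (0.49 ± 0.12), and the mast cell list 1 of 9, the chymase gene Cma1 (0.73 ± 0.18).

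Macrophage genes had a list median of 0.51, and 0 of 19 passed limma at an adjusted p under 0.05, with 10 at an unadjusted p under 0.05. Csf1r, the receptor for the macrophage growth factor, had 9.20 to 12.51 (median 10.63) in T cell rich and 8.92 to 10.73 (median 9.28) in T cell poor tumours (log2 1.01 ± 0.29, limma adjusted p = 0.0887). The macrophage list median was 0.18 without the muscle-high arrays. The neutrophil list had 0 of 13 past the test (5 at an unadjusted p under 0.05) and a median of -0.01 (-0.07 without the muscle-high arrays), while the alarmin gene S100a8 had 4.00 to 8.73 (median 6.66) in T cell rich and 5.48 to 9.28 (median 7.79) in T cell poor tumours (log2 -1.48 ± 0.48, limma adjusted p = 0.126).

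In 5 genes (0.0275% of those tested) every T cell rich array lay above every T cell poor array, and in 0 genes every one lay below. Beside Il7 and Ltb they were Cd96, a receptor of T and NK cells, Gimap3, a GTPase of lymphocytes, and Ptpn22, a phosphatase that damps T cell receptor signals, and they were picked out after their values were seen. Ltb, Cd96, Gimap3 and Ptpn22 can travel with the score genes, so their separation is no support independent of the split. Gimap3 had 7.25 to 7.97 (median 7.49) in T cell rich and 6.21 to 7.14 (median 6.92) in T cell poor tumours (log2 0.74 ± 0.10, limma adjusted p = 0.00217). Ptpn22 had 6.22 to 7.82 (median 6.68) and 4.45 to 6.22 (median 5.62), so its classes came close to each other. Further large rises among the named genes were those of Slamf8, a surface receptor of myeloid cells (1.62 ± 0.28), Ms4a4b, a membrane protein of T cells (1.56 ± 0.26), and Calhm6, a channel subunit (1.51 ± 0.34). Cyp2e1, a cytochrome of liver and fat, differed by 0.58 in series A and 3.60 in series B (limma adjusted p = 0.047 for both together) and lay at 7.91 to 10.02 in the T cell rich arrays of series B, where the adipocyte mean was high.

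**Figure D3:**
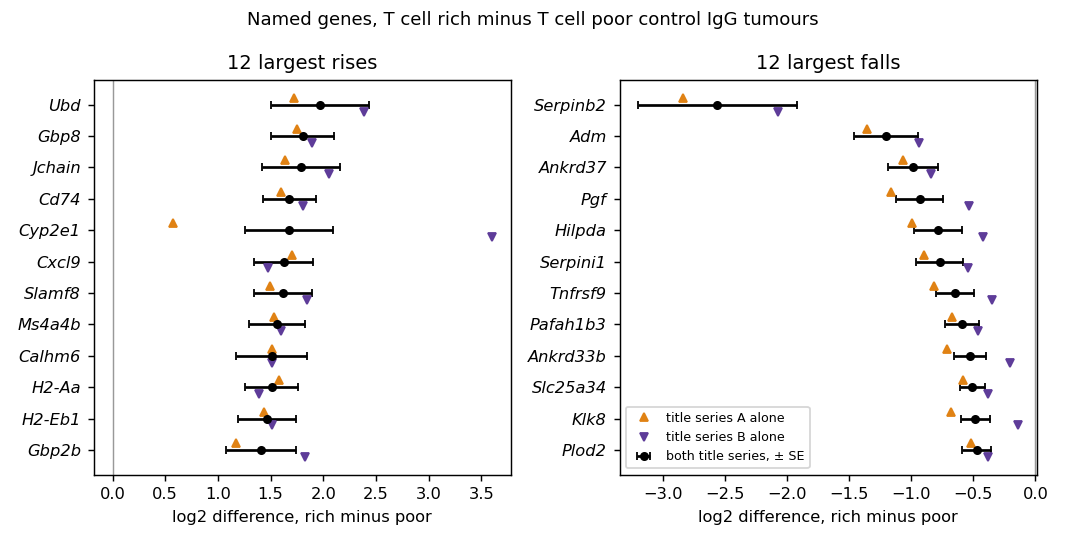
Log2 difference, T cell rich minus T cell poor, of the 12 largest rises (left) and 12 largest falls (right) under the naming rule; black points with bars give the estimate of both title series ± SE (11 against 11 arrays), upward triangles series A alone and downward triangles series B alone. Rises run from 1.41 for Gbp2b to 1.97 for Ubd and falls from -0.47 for Plod2 to -2.56 for Serpinb2, and Cyp2e1 differs most between the series (0.58 and 3.60).

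The list of genes that cells switch on at low oxygen, or that belong to glycolysis, lay below 0 throughout. All 14 measured genes of the hypoxia and glycolysis list had negative differences in both series (median -0.43), beside 33.9% of all genes, and 2 passed the test, beside 0.242% of all genes. As background, the hypoxia-inducible factors bind ACGTG or GCGTG in the promoters and enhancers of such genes. The promoters of these 2 genes, chosen after their values were seen, are shown with matches to either motif on both strands in capitals (RefSeq, GRCm38.p6, 5′ to 3′ along the gene):
Ankrd37 (chr8:45999801-46000100, minus strand): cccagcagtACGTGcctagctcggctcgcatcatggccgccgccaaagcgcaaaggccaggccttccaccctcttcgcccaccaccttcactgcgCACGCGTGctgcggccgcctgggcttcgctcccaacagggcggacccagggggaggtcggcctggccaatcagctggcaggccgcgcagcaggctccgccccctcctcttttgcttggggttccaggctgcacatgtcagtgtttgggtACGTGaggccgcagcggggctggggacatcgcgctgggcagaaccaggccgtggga
Adm (chr7:110627407-110627706, plus strand): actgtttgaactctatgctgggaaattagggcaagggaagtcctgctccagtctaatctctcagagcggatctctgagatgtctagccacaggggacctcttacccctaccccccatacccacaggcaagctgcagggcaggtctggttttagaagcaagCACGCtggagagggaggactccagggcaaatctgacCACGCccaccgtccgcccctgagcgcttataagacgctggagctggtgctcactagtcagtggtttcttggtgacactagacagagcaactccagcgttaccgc
Ankrd37 holds 4 matches, 2 of them overlapping on opposite strands, and Adm holds 2. The motifs are short and occur in 43.8% of all windows, in 35.2% of the windows of the higher genes and in 57.4% of those of the lower genes.

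Adm, which encodes the vessel-widening peptide adrenomedullin, had 7.08 to 9.50 (median 8.37) in T cell rich tumours, against 8.57 to 10.25 (median 9.81) in T cell poor tumours (2.31-fold lower; log2 -1.21 ± 0.26, limma adjusted p = 0.0182). Of the T cell rich arrays 6 lay below every T cell poor array. Ankrd37, an ankyrin-repeat protein, had 6.72 to 8.32 (median 7.60) and 7.75 to 9.65 (median 8.59) (log2 -0.99 ± 0.20, limma adjusted p = 0.0128). The glucose transporter gene Slc2a1 (-0.55 ± 0.18) and Bnip3, a mitochondrial autophagy receptor (-0.72 ± 0.24), did not pass (limma adjusted p = 0.133 and 0.137). The hypoxia list median was -0.33 without the muscle-high arrays.

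The remaining falls named here belong to no list. Hilpda, a lipid droplet protein, fell by 0.79 (SE 0.20, limma adjusted p = 0.045), and Plod2, a collagen-modifying enzyme, fell by 0.47 (SE 0.12, limma adjusted p = 0.0449). Pgf, placental growth factor, had 6.76 to 8.01 (median 7.48) in T cell rich and 7.52 to 9.25 (median 8.30) in T cell poor tumours (log2 -0.93 ± 0.19, limma adjusted p = 0.0128). The largest fall was that of Serpinb2, an inhibitor of plasminogen activators, with 3.68 to 7.38 (median 5.35) in T cell rich tumours, against 4.69 to 11.02 (median 6.93) in T cell poor tumours (5.91-fold lower; log2 -2.56 ± 0.64, limma adjusted p = 0.045). The T cell poor arrays spanned more than 6 log2 units, and 4 of 11 T cell rich arrays lay below all of them. Smaller falls were those of the neuronal serpin gene Serpini1 (-0.77 ± 0.19), of Pafah1b3, a subunit of an acetylhydrolase of platelet-activating factor (-0.59 ± 0.14), and of Slc25a34, a mitochondrial carrier (-0.51 ± 0.10). The secreted protease gene Klk8 differed by -0.49 ± 0.12 and Ankrd33b by -0.53 ± 0.13.

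The lists for the tumour cells themselves held 0 calls by limma, beside 1.41% of all genes, a share at which lists of this size would hold few or none. Of 14 melanocyte differentiation genes 0 passed (1 at an unadjusted p under 0.05; median 0.04, and 0.10 without the muscle-high arrays). The pigment enzyme gene Dct lay at 14.09 to 14.37 (median 14.23) in T cell rich and 14.06 to 14.28 (median 14.20) in T cell poor tumours. It and Tyrp1, another pigment enzyme gene, were bright in every array, so the tumours carried markers of their label. Of 19 proliferation genes 0 passed, with 0 at an unadjusted p under 0.05 and a median of 0.06, and 0 of 18 oxidative phosphorylation genes passed, with 0 at an unadjusted p under 0.05 and a median of -0.00355. Hgf, the transgene's gene, differed by -0.25 ± 0.16 and Cdk4 by -0.03 ± 0.06 (limma adjusted p = 0.425 and 0.824). Limma called 0 of 10 cholesterol synthesis and 0 of 11 Wnt target genes (0 and 3 at an unadjusted p under 0.05; medians -0.01 and -0.05, with 0.06 for cholesterol synthesis without the muscle-high arrays). It called 0 of 12 dedifferentiated melanoma and 0 of 12 TGF-beta response genes (3 and 5 at an unadjusted p under 0.05; medians 0.06 and 0.19), and 0 of 15 endothelial genes (2 at an unadjusted p under 0.05; median 0.13). Without the muscle-high arrays these medians were 0.00672 for dedifferentiated melanoma, -0.00414 for TGF-beta response and -0.12 for endothelial genes. The matrix list had 0 of 17 past the test (3 at an unadjusted p under 0.05) with a median of 0.58, which was 0.20 without the muscle-high arrays. Limma also called 0 of 11 keratinocyte genes (3 at an unadjusted p under 0.05; median -0.07) and 0 of 4 erythroid genes (1 at an unadjusted p under 0.05; median -0.29).

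The difference between the classes depended on the title series for 14 genes (0.077%; limma interaction, adjusted p under 0.05), and for all 14 it was larger in series B. Several are known from fat cells. Cidec, a lipid droplet protein, differed by 0.21 in series A and 2.35 in series B (limma interaction adjusted p = 0.00403), while Retn, the hormone resistin, differed by 0.02 and 2.33 (limma interaction adjusted p = 0.000812). Plin4, a coat protein of lipid droplets, differed by 0.24 and 1.79 (limma interaction adjusted p = 0.00801). Cidec lay at 6.25 to 7.85 in the T cell rich arrays of series B, against 4.12 to 4.80 in the T cell poor arrays. Over all genes the differences within series A and within series B had a Pearson correlation of 0.52 across genes, which are not independent replicates and are read from the same arrays.

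**Figure D4:**
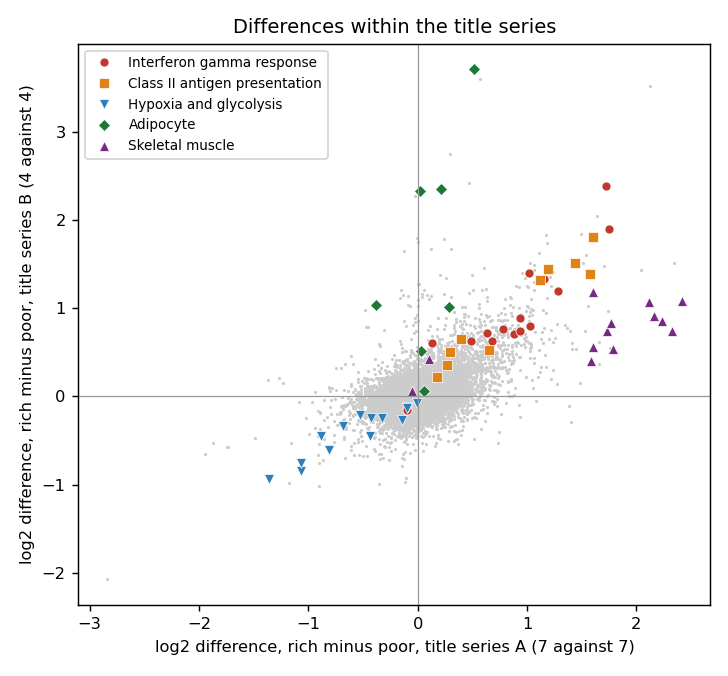
Log2 difference, T cell rich minus T cell poor, of each gene within title series A (x axis, 7 against 7 arrays) and within title series B (y axis, 4 against 4 arrays); grey points are all genes tested and coloured symbols the members of 5 lists. Interferon gamma and class II genes lie near the diagonal with medians of 0.94 and 0.89 on the x axis and 0.76 and 0.98 on the y axis, hypoxia genes lie below 0 on both axes, muscle genes lie further along the x axis and adipocyte genes along the y axis.

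Tumours that received the antibody against PD-L1 shared no array with the split and were compared on their own, Responder (27 arrays) against NonResponder (23 arrays). There 2915 genes (16%) were higher and 4776 (26.3%) lower by limma with the title series as a block. These counts depend on the title series: series A alone gave 25 higher and 144 lower, and series C, which holds other antibody-treated tumours, gave 1615 and 1520. Of the 213 genes higher in T cell rich control tumours 187 were also higher in Responder tumours, which is 87.8% of the 213 and 6.42% of the 2915, and 0 were lower. The split score itself averaged 8.76 in Responder and 7.48 in NonResponder arrays of series A. Genes that travel with the score are thus prone to be higher in Responder tumours, so this overlap is no independent support. The median Responder minus NonResponder difference of the 213 was 0.67, and that of the 44 genes lower in T cell rich tumours was -0.11. Of these 44 genes 12 were also lower in Responder tumours (27.3% of the 44 and 0.251% of the 4776), and 0 were higher.

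For single genes the pairs of differences stand side by side, rich minus poor first, and whether they differ from each other was not tested. They were 1.62 ± 0.28 and 1.499 ± 0.27 for Cxcl9, 1.68 ± 0.25 and 1.58 ± 0.31 for Cd74, and 0.66 ± 0.11 and 1.19 ± 0.24 for Pdcd1 (SE). For Cd274 they were 0.23 ± 0.10 and 0.74 ± 0.14, and the second passed (limma adjusted p = 0.000661). Among the falls, Adm had -1.21 ± 0.26 and -0.005 ± 0.20, Pgf -0.93 ± 0.19 and 0.02 ± 0.11, and Serpinb2 -2.56 ± 0.64 and -0.14 ± 0.34. In Responder against NonResponder tumours these 3 did not pass (limma adjusted p = 0.985, 0.916 and 0.751). Their Responder minus NonResponder differences had opposite signs in series A and series C. They were 0.25 and -0.42 for Adm, 0.04 and -0.03 for Pgf, and 0.07 and -0.47 for Serpinb2. Of the 12 named falls, 2 were also lower in Responder tumours, Serpini1 by -0.51 ± 0.15 and Pafah1b3 by -0.44 ± 0.14 (limma adjusted p = 0.00865 and 0.011). Ankrd37 and Hilpda had -0.34 ± 0.15 and -0.34 ± 0.15 and did not pass (limma adjusted p = 0.0537 and 0.0656). The hypoxia list had a Responder minus NonResponder median of 0.24, with 6 of 14 genes higher and 0 lower, against a rich minus poor median of -0.43.

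Within series A the levels of the other tumours place the split. Of 17 Responder arrays 16 had a score above the highest T cell poor array and 10 above the highest T cell rich array. For the 14 NonResponder arrays these counts were 8 and 1, and for the 3 PBS arrays 2 and 0. That 1 NonResponder array had a score of 11.29, against a NonResponder median of 7.45. Among NonResponder arrays the lymph node stroma mean reached 9.83 (median 5.57) and the B cell and plasma cell mean 10.41 (median 5.43). Whether 1 array holds all these values is not given here. Their part in the NonResponder means and in the Responder minus NonResponder differences was not tested. Cxcl9 averaged 10.84 ± 0.51 in T cell rich and 9.14 ± 0.88 in T cell poor control tumours (SD, n = 7 each), 11.13 ± 1.003 in Responder (n = 17), 9.73 ± 1.31 in NonResponder (n = 14) and 9.95 ± 0.56 in PBS tumours (n = 3). Adm averaged 8.38 ± 0.67 in T cell rich and 9.73 ± 0.47 in T cell poor control tumours, 8.57 ± 0.73 in Responder, 8.32 ± 0.82 in NonResponder and 8.42 ± 1.56 in PBS tumours, so the T cell poor control tumours stood highest. Serpinb2 averaged 5.75 ± 1.10 in T cell rich and 8.59 ± 1.97 in T cell poor control tumours, 4.76 ± 1.22 in Responder, 4.69 ± 1.09 in NonResponder and 6.48 ± 2.21 in PBS tumours. These levels across groups are a description with no test.

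**Figure D5:**
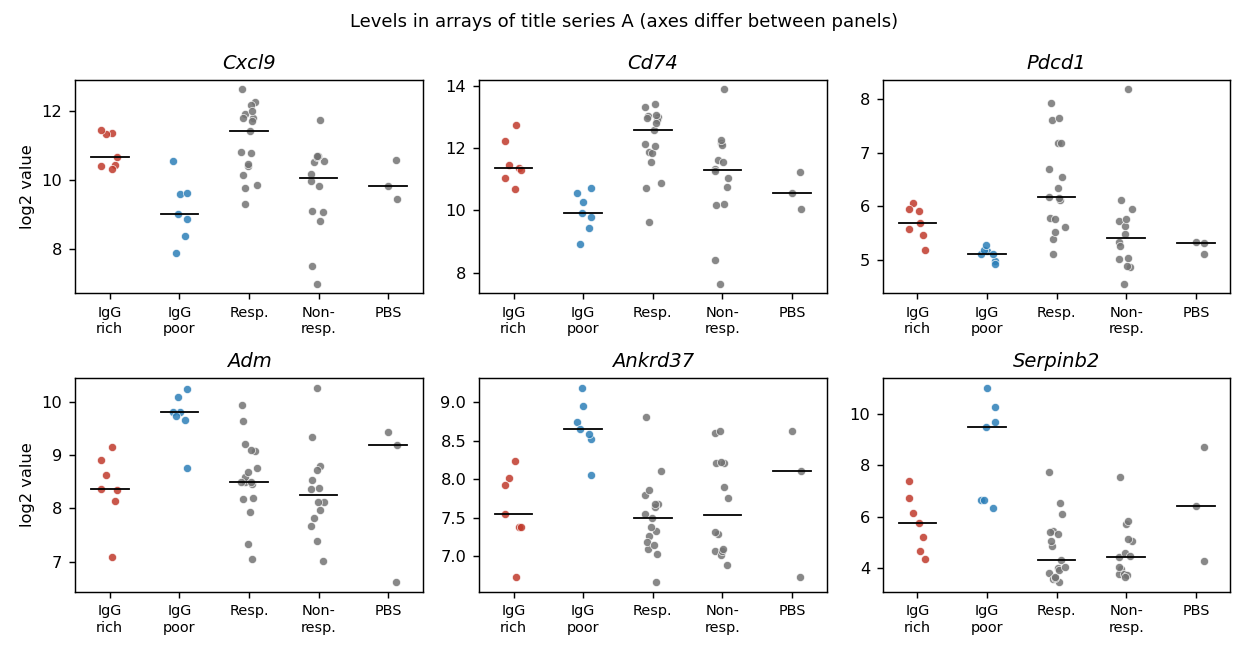
Log2 values of 6 genes in each array of title series A, with T cell rich (red) and T cell poor (blue) control IgG tumours left of Responder, NonResponder and PBS tumours (grey); bars are medians and the axes differ between panels. Cxcl9, Cd74 and Pdcd1 are higher in T cell rich than in T cell poor arrays and Adm, Ankrd37 and Serpinb2 lower, and the Adm mean of 9.73 in T cell poor arrays stands above the means of the other groups (8.32 to 8.57).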

How the data were processed

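The deposited table holds log2 values of 45101 probe sets in 90 arrays, which the authors made with RMA (robust multi-array average), per the submitters' processing notes. Limma is also named there, and versions are not given in the sources used here. RNA came from column purification with DNase digestion, and 800 ng were amplified and labelled with biotin. No pair of control IgG arrays was identical. Control probe sets (64) were left out. GEO's platform annotation of 2016 gives 34945 probe sets 1 symbol, 932 several and 9160 none. Each of 18193 genes took its probe set of highest mean, a choice for 9010 genes, and 18032 genes matched RefSeq by Entrez ID. Precision is set by the number of arrays, which have no sequencing depth.

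The members and the 31 lists (383 of 417 genes measured) were chosen with earlier results of these data known. Because the split used measured values of the same arrays, no p-value bears on a treatment. The 18189 genes without the score genes were fitted over the 22 control IgG arrays by limma 3.58.1 (lmFit and eBayes, R 4.3.3) with the title series as a block and called at an adjusted p under 0.05. Named genes are the 12 rises and 12 falls of largest size among those called with the same sign in both title series, leaving out antibody and T cell receptor segments, unnamed transcripts and genes of the T cell and cytotoxic lists. To these come up to 4 genes of smallest p of each list (up to 6 of largest difference for the T cell and cytotoxic lists) and Cd274, Pdcd1, Hgf and Cdk4. Other genes named (Acta1, Adipoq, Cd4, Zap70, Nos2, Ido1, Plin4 and those said so in the text) were chosen after their values were seen. Alternatives were other fits, scalings, filters, probe set rules and left-out arrays. The procedure was tested on simulated data.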

Additional observations from a re-analysis of the deposited data

Results flagged for a closer look

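Of 220 sets of arrays (a list mean or a named gene, in 1 class of 1 title series), 24 had 1 array far from the others by Dixon's test, which chance gives in about 1 of 20 sets. In T cell rich arrays of series A the highest array stood apart for the means of the checkpoint ligand (7.55, next 7.23), neutrophil (6.83, next 5.93), lymph node stroma (6.45, next 5.75), dedifferentiated melanoma (7.28, next 6.70), TGF-beta response (8.80, next 8.11), endothelial (9.03, next 7.47) and erythroid lists (6.72, next 5.72). The lowest array stood apart there for the hypoxia (9.16, next 9.93) and cholesterol synthesis means (9.08, next 9.59) and for Plod2 (8.82, next 9.50). Many of these flags share an array, numbered as deposited. Muscle-high array 7 was the one for the checkpoint ligand, neutrophil, dedifferentiated melanoma, TGF-beta response, endothelial and cholesterol synthesis means. Muscle-high array 1 was the one for the lymph node stroma and hypoxia means. In T cell rich arrays of series B the highest array stood apart for the B cell and plasma cell (6.62, next 5.70), lymph node stroma (6.15, next 5.66), skeletal muscle (8.86, next 5.34) and adipocyte means (8.37, next 7.71). The lowest stood apart for the class I (11.29, next 11.69) and mast cell means (5.17, next 5.40), Gbp8 (6.27, next 7.31) and Ms4a4b (8.67, next 9.63). Muscle-high array 17 was the one for the B cell and plasma cell, lymph node stroma, skeletal muscle and mast cell means. In T cell poor arrays of series A 1 array stood high in the neutrophil (6.54, next 6.28) and dedifferentiated melanoma means (7.02, next 6.66), and 1 stood low in Adm (8.77, next 9.67) and Hilpda (10.00, next 10.45). In T cell poor arrays of series B 1 array stood high in Jchain (7.97, next 6.03) and Cyp2e1 (5.89, next 4.88).

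The rich minus poor difference was smaller in series A than in series B for 14 genes by limma's interaction test at an adjusted p under 0.05. As the difference in series A minus that in series B, the values were -2.31 for Retn, -1.78 for Adig, -2.29 for Wfdc21, -1.26 for Aldh1a7, -2.45 for Cdo1, -2.14 for Cidec and -0.85 for Inmt. They were -1.55 for Plin4, -1.02 for Sncg, -0.93 for Tmem45b, -1.75 for Orm1, -1.55 for Amy1, -1.09 for Nnat and -0.62 for Avil. The adipocyte means of the T cell rich arrays of series B lay above those of all T cell poor arrays, and their part in these differences was not tested.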

How the results depend on the processing

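No paired analysis was possible because the labels give no replicate numbers. The counts of genes higher and lower in T cell rich tumours were 213 and 44. With all 90 arrays sharing the spread they were 26 and 11, with median centring 170 and 77, with quantile normalization 215 and 56, without dim genes 119 and 16, and without the title series block 151 and 17. Without the arrays next to the median they were 234 and 22, and with the score as a continuous term 825 and 191. Series A alone gave 0 and 0 (2562 genes at an unadjusted p under 0.05) and series B alone 15 and 0 (1027 at an unadjusted p under 0.05) by limma. Leaving out 1 array at a time gave 114 to 320 higher and 13 to 88 lower genes, with the sign of all 257 called genes kept. Of the 22 arrays, numbered as deposited, 14 moved a count by over 1.5 times. Without T cell rich array 1, 3, 4, 7, 8 or 14 of series A the counts were 122 and 13, 131 and 21, 153 and 19, 171 and 21, 162 and 17, and 320 and 88. Without T cell rich array 15 or 17 of series B they were 143 and 15, and 114 and 13. Without T cell poor array 6, 10, 11 or 13 of series A they were 207 and 29, 114 and 15, 139 and 15, and 125 and 18, and without T cell poor array 16 or 22 of series B 247 and 67, and 125 and 14. Settings chosen after seeing the data gave 1 and 0 without the 4 muscle-high arrays, 0 and 0 in series A without them (1212 at an unadjusted p under 0.05), 0 and 0 with the adipocyte mean as a covariate (1952), and 1 and 0 with both tissue means. There Cyp2e1 (-0.082) and Cdo1 (-0.064) reversed in series A without the muscle-high arrays. Of 54 called genes named here, 54 kept their sign without the muscle-high arrays and 1 kept its call. Without dim genes 34 of the 54 kept their call, and the others were too dim to enter that fit. The cause of these differences was not tested.

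The 14 genes whose difference was larger in series B became 0 with all 90 arrays (310 at an unadjusted p under 0.05), 1 without dim genes and 13 after quantile normalization. Responder minus NonResponder gave 25 higher and 144 lower genes in series A alone, 1615 and 1520 in series C alone, and 2247 and 3633 after quantile normalization, against 2915 and 4776.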
